A study of Mus musculus with 4 samples.

Results

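The Wnt pathway genes are described here as a set of 46 coding genes of the mouse, chosen by name from the 21938 nuclear coding genes of GENCODE release M21. They comprise 19 ligands (every *Wnt* gene with a number), 10 receptors (every numbered *Fzd* gene) and 17 core genes. The core genes are *Ctnnb1*, *Apc*, *Axin1*, *Axin2*, *Gsk3b*, *Lrp5*, *Lrp6*, *Dkk1*, *Dkk2*, *Dkk3*, *Sfrp1*, *Sfrp2*, *Sfrp5*, *Tcf7*, *Tcf7l1*, *Tcf7l2* and *Lef1*. The assay was ATAC-seq, in which the Tn5 transposase cuts open chromatin and sites with many cuts are called as peaks. It was applied to E9.5 hearts of wild-type (WT) embryos and of embryos with a conventional null of *Smyd1* (*Smyd1-KO*), which encodes a histone methyltransferase of striated muscle. Each genotype had 2 libraries, each from a pool of 4 whole hearts that were frozen singly before dissociation, with 40000 viable cells taken. Embryos of both sexes were used, from heterozygous parents, and the null allele was present in all cells of the embryo.

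Of the peaks that differed by 2-fold or more, 25745 were higher in *Smyd1-KO* hearts, called gained peaks here, and 106 were higher in WT hearts. All peaks have 1 width, 149 bp, and each has 1 score, the tags of the pooled libraries of the genotype in which it was called. The score is therefore a level and not the size of the difference, and the depth of each library is unknown from these lists. The libraries of a genotype were pooled, so the values carry no error between replicates, and genotypes could not be tested against each other. Peaks that did not differ between the genotypes are not used here. A gene without a gained peak may thus have had closed chromatin in both genotypes or chromatin that was equally open. The pools were whole hearts, so a change in the share of a cell type and a change in accessibility per cell cannot be told apart.

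Wnt proteins are secreted, lipid-modified ligands that bind Frizzled receptors and, in the canonical branch, the co-receptors LRP5 and LRP6. Without a ligand, a complex of AXIN, APC and the kinase GSK3B marks β-catenin (*Ctnnb1*) for destruction. With a ligand, β-catenin accumulates and acts with TCF and LEF factors on target genes. Dickkopf (DKK) proteins act on the co-receptors and secreted Frizzled-related proteins (SFRPs) bind the ligands. Canonical signalling influences cardiac specification and progenitor growth in a stage-dependent way, and the non-canonical ligands WNT5A and WNT11 act in outflow tract development.

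The sequences of gained peaks are shown for the pair of genes in each class with the highest-scoring peak that covered no annotated UTR. Among the ligands *Wnt4* and *Wnt11* tied for the place after *Wnt9a*, at 386 tags, and both are shown. All are given on the strand of the gene and 5′ to 3′, and capitals mark GGGCGG or its complement, the GC box bound by SP and KLF factors. The *Wnt9a* peak (chr11:59306762-59306910, plus strand, mm10) ended 18 bp before the TSS. That of *Wnt11* (chr7:98837991-98838139, plus strand) lay in an intron, 706 bp from a TSS. The *Wnt4* peak (chr4:137277098-137277246, plus strand) ended 243 bp before the TSS. The *Fzd4* peak (chr7:89404193-89404341, plus strand) ended 14 bp and the *Fzd7* peak (chr1:59481984-59482132, plus strand) 292 bp before the TSS. Those of *Gsk3b* (chr16:38088800-38088948, plus strand) and *Axin1* (chr17:26138518-26138666, plus strand) ended 53 bp and 22 bp before it.
Wnt9a: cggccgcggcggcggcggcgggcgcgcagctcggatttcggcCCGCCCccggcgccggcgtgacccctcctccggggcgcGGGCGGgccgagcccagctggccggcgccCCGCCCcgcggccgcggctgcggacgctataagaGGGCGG 
Wnt11: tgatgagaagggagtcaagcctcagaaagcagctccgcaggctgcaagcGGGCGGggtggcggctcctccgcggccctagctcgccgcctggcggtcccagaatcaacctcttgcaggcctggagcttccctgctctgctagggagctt 
Wnt4: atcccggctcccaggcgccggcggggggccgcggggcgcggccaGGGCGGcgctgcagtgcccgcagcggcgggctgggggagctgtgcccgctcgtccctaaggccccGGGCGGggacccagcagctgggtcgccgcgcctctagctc 
Fzd4: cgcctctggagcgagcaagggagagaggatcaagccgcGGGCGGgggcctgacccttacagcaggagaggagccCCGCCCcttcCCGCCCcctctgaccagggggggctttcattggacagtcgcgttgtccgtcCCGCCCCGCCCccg 
Fzd7: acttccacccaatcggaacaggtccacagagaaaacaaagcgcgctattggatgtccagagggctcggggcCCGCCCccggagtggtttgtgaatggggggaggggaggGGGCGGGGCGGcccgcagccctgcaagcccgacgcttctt 
Gsk3b: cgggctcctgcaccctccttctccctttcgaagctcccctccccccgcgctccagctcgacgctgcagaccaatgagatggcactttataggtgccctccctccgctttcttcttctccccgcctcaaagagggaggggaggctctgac 
Axin1: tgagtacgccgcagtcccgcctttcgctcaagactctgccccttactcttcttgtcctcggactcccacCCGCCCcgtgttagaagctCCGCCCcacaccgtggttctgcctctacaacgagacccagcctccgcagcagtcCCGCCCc
The GC box occurred 4 times in the *Wnt9a* peak, 2 times in that of *Wnt4*, 5 times in that of *Fzd4*, 3 times in those of *Fzd7* and *Axin1*, once in that of *Wnt11* and nowhere in that of *Gsk3b*.

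The first comparison was how many Wnt pathway genes had a gained peak within 3 kb of a TSS, with distances taken from the edge of the peak that is closer to the TSS. This was so for 24 of the 46 genes, or 52.2% (exact 95% interval 36.9 to 67.1%, counting error over genes only). The background was 51.2% of all coding genes, so the set as a whole was near it. Among the receptors 7 of 10 had such a peak (70.0%, 34.8 to 93.3%), among the core genes 9 of 17 (52.9%, 27.8 to 77.0%) and among the ligands 8 of 19 (42.1%, 20.3 to 66.5%). The background lay within the interval of each class, and the intervals of the classes overlapped. The order of the classes is therefore given as a description. The order was the same for peaks within 1 kb (70.0%, 52.9% and 36.8%) and within 10 kb (90.0%, 64.7% and 52.6%), where the background was 48.1% and 59.6%. With only peaks at or above the median score of the list, 5 of 19 ligands had one (26.3%, 9.15 to 51.2%), against 45.4% of coding genes.

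**Figure D1:**
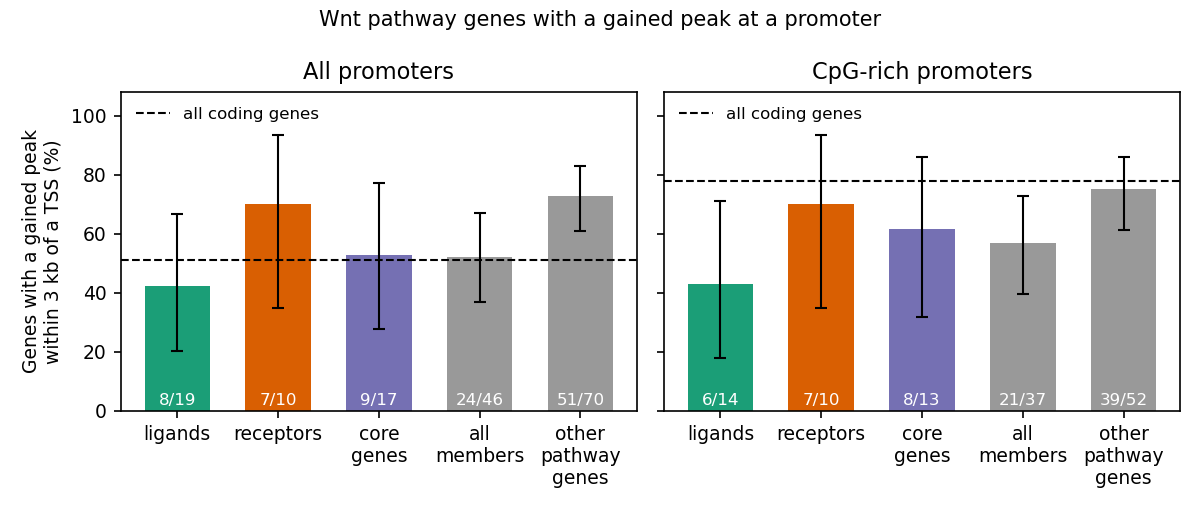
Share of genes with a gained peak within 3 kb of a TSS (%), for all genes of each class (left) and for those with a CpG-rich promoter (right). Bars give the share, whiskers the exact 95% interval for counting error over genes, numbers the genes with a peak of all genes, and dashed lines the share of all coding genes, 51.2% on the left and 77.8% on the right.

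The Frizzled receptors carried some of the highest-scoring promoter peaks of the pathway. *Fzd5* had 1 gained peak, with a score of 1404.5 tags, which covered its TSS and reached the 5′ UTR (chromosome 1, 64737679 to 64737827). This score stood at percentile 99.6 of all gained peaks. *Fzd4*, a receptor for Norrin as well as for Wnt ligands, had a peak of 1066 tags and a second of 385.5 tags farther upstream (chromosome 7, 89403641 to 89403789, 566 bp from the TSS). Both *Fzd4* peaks were nearer to a TSS of *Tmem135*, which the stronger one covered, so they cannot be assigned to *Fzd4* alone. *Fzd7* had a single peak of 941 tags, upstream of the gene. The *Fzd1* peak had 761.5 tags (chromosome 5, 4757967 to 4758115) and the *Fzd2* peak 706 tags (chromosome 11, 102604357 to 102604505), and both covered the TSS and part of the 5′ UTR.

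*Fzd8* had 2 gained peaks. One covered the TSS (chromosome 18, 9212025 to 9212173, 415.5 tags) and the stronger one lay in coding sequence, 1213 bp from the TSS (9213376 to 9213524, 530.5 tags). The *Fzd6* peak was the weakest of the receptors with 177.5 tags and covered the TSS of the noncoding *Gm26704* too. The other receptors had no gained peak within 3 kb. The peak nearest to *Fzd3* was 3969 bp from its TSS, just outside the window, with 402 tags, and lay 38 bp from a TSS of *Fbxo16*. For *Fzd9* it was 8355 bp away with 177.5 tags, 338 bp from a TSS of *Baz1b*, and for *Fzd10* 58525 bp away with 125 tags.

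In the β-catenin destruction complex, *Gsk3b*, *Axin1* and *Axin2* had gained promoter peaks and *Apc* and *Ctnnb1* did not. *Gsk3b*, whose kinase phosphorylates β-catenin, had 2 peaks of similar score on either side of the TSS. The upstream peak had 1372 tags and the other, in the 5′ UTR 252 bp from the TSS, 1313.5 tags (chromosome 16, 38089253 to 38089401). The *Axin1* peak scored 1235 tags. *Axin2*, which encodes a scaffold of the complex and is itself a widely used target of the pathway, had a peak of 626 tags over its TSS (chromosome 11, 108920255 to 108920403). At *Apc* the nearest gained peak was in an intron 11509 bp from a TSS and had 80 tags. *Ctnnb1* had none, either inside the gene or up to 50 kb away.

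Of the co-receptors, *Lrp6* had a peak of 338.5 tags over a TSS and *Lrp5* had none within 3 kb. Its nearest gained peak was in an intron, 8140 bp from a TSS, with 111.5 tags. The TCF/LEF factors divided in the same way. *Tcf7l1* had a peak of 574.5 tags over its TSS (chromosome 6, 72789196 to 72789344). *Tcf7l2* had one of 539 tags that ended 84 bp before the TSS (chromosome 19, 55741588 to 55741736), and another of 205 tags in an intron near a downstream TSS (55743606 to 55743754). *Tcf7* and *Lef1* had no promoter peak. The nearest to *Tcf7* was in an intron 20387 bp from its TSS with 112 tags, and that of *Lef1* in an intron 57350 bp from its TSS with 87 tags.

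Among the secreted antagonists, *Sfrp5* had a peak of 464.5 tags in its 5′ UTR, 40 bp from the TSS (chromosome 19, 42202064 to 42202212). *Sfrp2* had one of 284.5 tags over its TSS. *Dkk2* was the only gene of the 46 with 3 gained peaks within 3 kb, of 167.5, 128 and 159.5 tags, placed upstream of, at and downstream of the TSS. All of them scored below 180.5 tags, the median of the list. *Dkk1*, *Dkk3* and *Sfrp1* had none within 3 kb. The nearest peaks were 32989 bp from the TSS of *Dkk1* with 51 tags, 9758 bp from that of *Dkk3* with 206.5 tags and 23721 bp from that of *Sfrp1* with 189 tags.

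The ligands with gained promoter peaks were *Wnt9a*, *Wnt11*, *Wnt4*, *Wnt6*, *Wnt9b*, *Wnt7b*, *Wnt5b* and *Wnt16*. *Wnt9a* had the strongest, the 448.5-tag peak shown above, and a second one in an intron 957 bp from a TSS with 247.5 tags (chromosome 11, 59307887 to 59308035). *Wnt11* had a peak of 440 tags over an internal TSS and its 5′ UTR (chromosome 7, 98838849 to 98838997) besides the intronic one of 386 tags. *Wnt4* had 386 tags in a peak 243 bp upstream (chromosome 4, 137277098 to 137277246). *Wnt6* had 381 tags in an intronic peak 1273 bp from the TSS. *Wnt9b*, expressed in endocardium during valve formation, had 213 tags in a peak over its 5′ UTR and coding sequence, 3 bp from the TSS (chromosome 11, 103749670 to 103749818).

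The other ligand peaks scored lower. *Wnt7b* had peaks of 177 and 153.5 tags at 682 bp and 1135 bp upstream, *Wnt5b* one of 171 tags at 280 bp, and *Wnt16* one of 68.5 tags at 37 bp. The ligands without a peak within 3 kb were *Wnt1*, *Wnt2*, *Wnt2b*, *Wnt3*, *Wnt3a*, *Wnt5a*, *Wnt7a*, *Wnt8a*, *Wnt8b*, *Wnt10a* and *Wnt10b*. *Wnt8a* was just outside the window, with a peak of 142 tags at 3917 bp. *Wnt5a* was farthest from any gained peak, at 357298 bp. *Wnt2b* followed at 91026 bp, where the peak covered a TSS of *Cttnbp2nl*.

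There were 4 pairs of ligand genes within 100 kb of each other. In 3 of them 1 partner had a gained promoter peak and the other did not. Over all coding genes 51.2% had such a peak. How often neighbouring coding genes differ in this way was not counted, so the pairs are given as a description. *Wnt6* had a peak and *Wnt10a*, with its 5′ end 19624 bp away on the same strand, had none. *Wnt9a* and *Wnt9b* had peaks, and their divergent neighbours *Wnt3a* and *Wnt3*, with 5′ ends 16176 bp and 24329 bp away, had none. *Wnt10b* and *Wnt1*, whose divergent 5′ ends are 11707 bp apart, both lacked a gained peak. In the span from 10 kb before to 10 kb after this last pair lay 2 gained peaks, one of 595.5 tags over a TSS of *Arf3* and one of 182.5 tags beyond *Wnt1*.

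**Figure D2:**
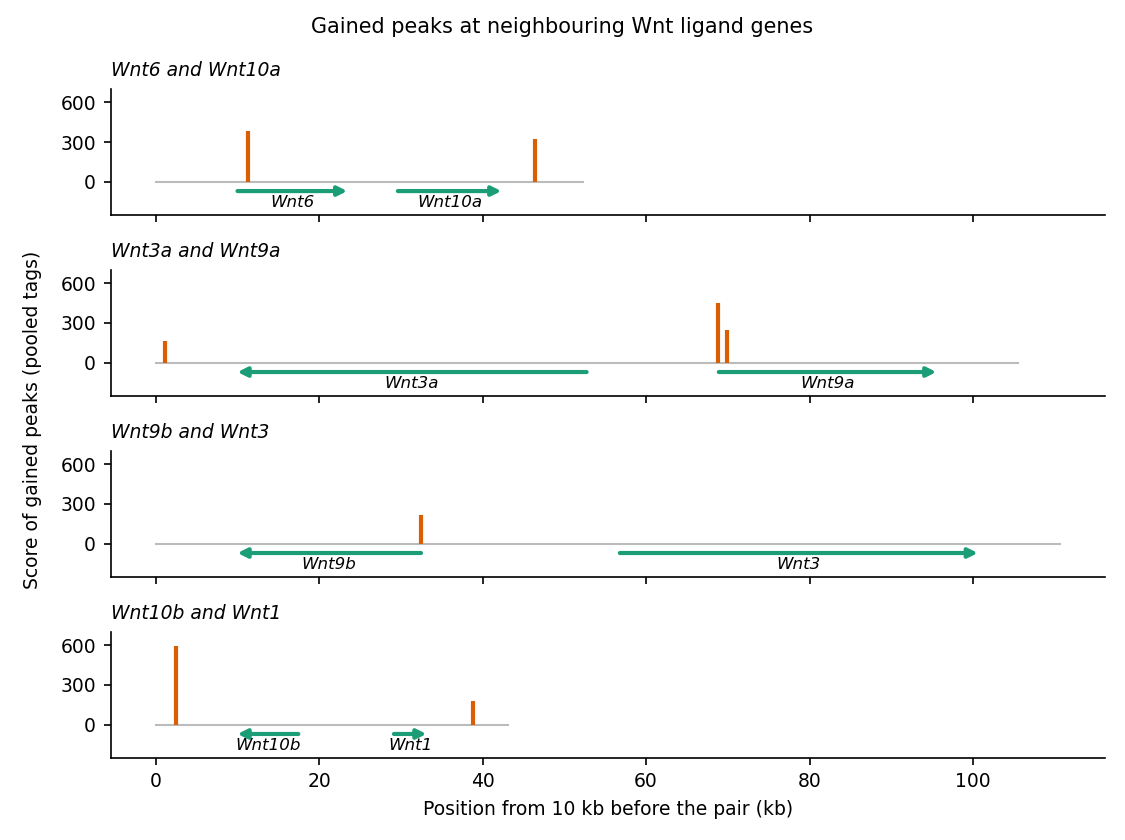
Gained peaks (orange, height is the score in pooled tags) along the 4 pairs of neighbouring ligand genes, in kb from 10 kb before each pair; green arrows show the genes in the direction of transcription. In the upper 3 pairs the peaks nearest to a 5′ end are at *Wnt6*, *Wnt9a* and *Wnt9b*, while *Wnt10a*, *Wnt3a*, *Wnt3*, *Wnt10b* and *Wnt1* have none within 3 kb.

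The score was not used to choose the genes, and it was compared between the classes as a description. The strongest promoter peak per gene had a median of 761.5 tags in the 7 receptors (177.5 to 1404.5), 539 tags in the 9 core genes (167.5 to 1372) and 297 tags in the 8 ligands (68.5 to 448.5). Over the 11236 coding genes with such a peak the median was 460.5 tags, with quartiles of 292 and 693. None of the 8 ligands was above this median, against 6 of 7 receptors and 6 of 9 core genes. All receptors but *Fzd6* scored above every ligand. With the window at 10 kb the median of the ligands was 197.75 tags, since the peaks of 142 tags at *Wnt8a* and 182.5 tags at *Wnt1* entered. When a peak counted for its nearest coding gene alone, *Fzd4* left the receptors and their median was 733.75 tags. Over all 24 genes the median was 456.5 tags, close to that of coding genes.

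**Figure D3:**
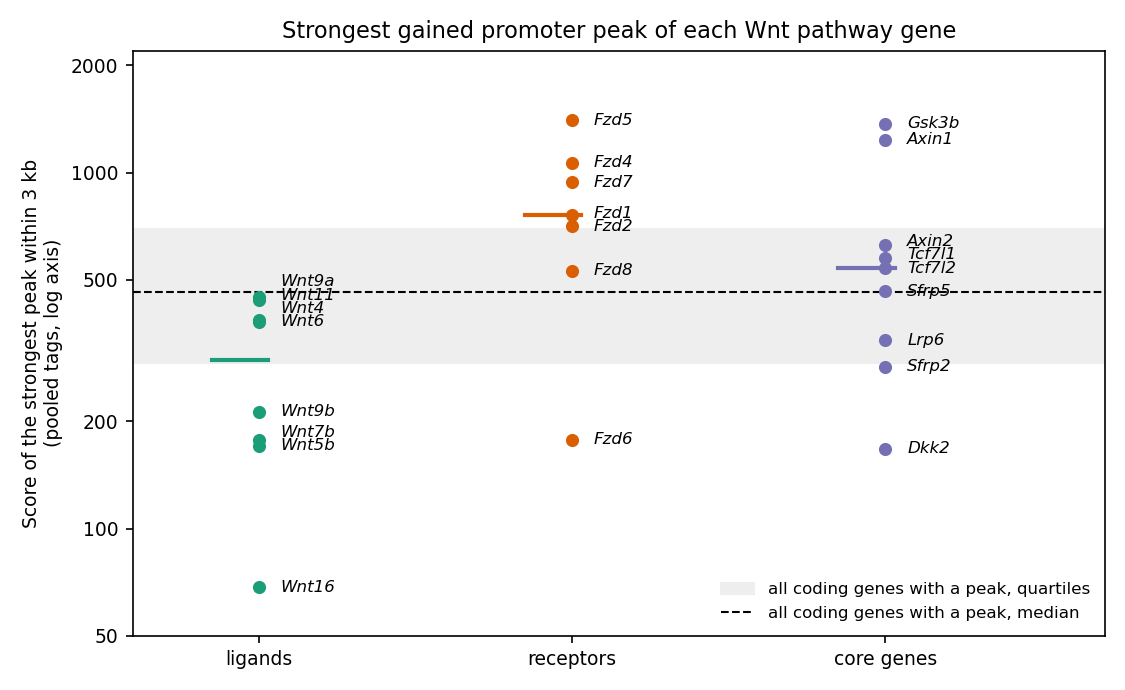
Score of the strongest gained peak within 3 kb of a TSS for each gene with such a peak (pooled tags, log axis), by class, with coloured bars at the class medians; the dashed line and grey band give the median and quartiles over 11236 coding genes with a peak. All 8 ligands lie below the dashed line at 460.5 tags, and 6 of 7 receptors lie above it.

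Of the strongest peaks per gene, 17 of 24 were within 100 bp of a TSS (70.8%, against 73.7% of coding genes with a peak) and 9 covered it (37.5%, against 49.8%). Coverage of the TSS was found in 4 of 7 receptors, 4 of 9 core genes and 1 of 8 ligands, the last being *Wnt11*. The middle of the strongest peak was upstream of the TSS in 17 of the 24 genes (70.8%, against 68.4%). At least 2 gained peaks within 3 kb were found for 8 of the 24 genes, 33.3%, against 23.0% of coding genes with a peak.

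**Figure D4:**
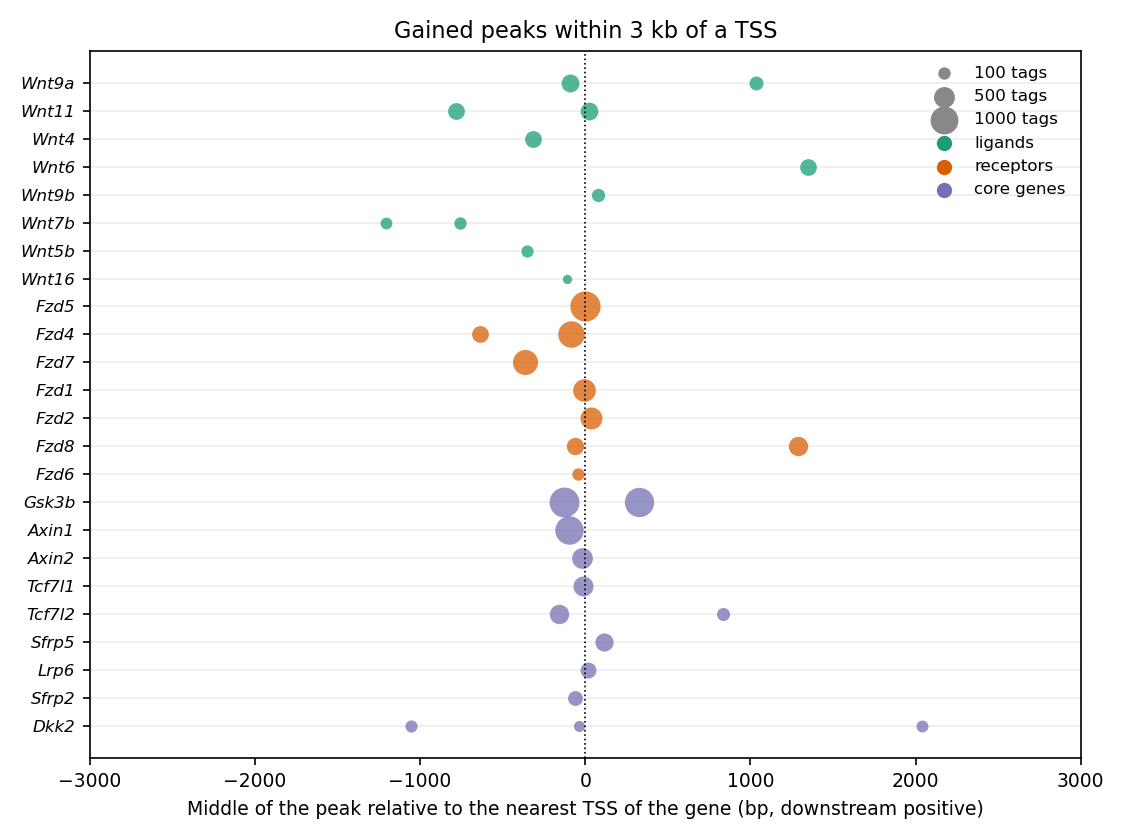
Position of the 33 gained peaks within 3 kb of a TSS of a Wnt pathway gene, as the distance of the middle of the peak from the nearest TSS of the gene (bp, downstream positive); the area of a dot grows with the score and the colour gives the class. By the edge of the peak, which is not the distance plotted, the strongest peaks of 17 of 24 genes are within 100 bp of a TSS. *Dkk2* has 3 peaks spread over both sides.

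Promoters rich in CpG dinucleotides are open in most tissues, so the genes were also divided by the composition of the 500 bases around the 5′ end of the gene. A promoter was called CpG-rich at a GC content of at least 50% and an observed to expected CpG ratio of at least 0.6. This held for 37 of the 46 genes (80.4%) and for 47.5% of all coding genes. All 10 receptors were CpG-rich, as were 14 of 19 ligands and 13 of 17 core genes. By this 5′ end alone, the CpG-poor promoters were those of *Wnt7b*, *Wnt8a*, *Wnt8b*, *Wnt10a*, *Wnt16*, *Ctnnb1*, *Dkk1*, *Dkk2* and *Dkk3*.

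Among CpG-rich promoters, 77.8% of all coding genes had a gained peak within 3 kb. For the Wnt pathway genes it was 21 of 37, or 56.8% (exact 95% interval 39.5 to 72.9%), below this background. By class it was 6 of 14 ligands (42.9%, 17.7 to 71.1%), 8 of 13 core genes (61.5%, 31.6 to 86.1%) and 7 of 10 receptors (70.0%, 34.8 to 93.3%). Among CpG-poor promoters the share was 3 of 9 genes (33.3%, 7.49 to 70.1%), against 27.1% of all coding genes, and the 3 were *Wnt7b*, *Wnt16* and *Dkk2*. Of the classes, the interval of the ligands alone left out the background of 77.8%, and those of the core genes and receptors held it. With 300 bases the share over CpG-rich promoters was 61.3% for the set, against 78.5%, and 6 of 11 for the ligands (54.5%, 23.4 to 83.3%), whose interval then held the background. As an alternative added after the data were seen, any TSS of a gene could meet the limits. The share was then 56.4%, against 76.8%, over CpG-rich promoters and 2 of 7 (28.6%, 3.67 to 71.0%), against 18%, over CpG-poor ones. For the ligands it was 7 of 15 CpG-rich promoters (46.7%, 21.3 to 73.4%), whose interval left out the background. By this rule 14 core genes were CpG-rich. The gene added was *Ctnnb1*, with 15 annotated TSSs, since *Dkk1*, *Dkk2* and *Dkk3* have 1 TSS each. The score of the strongest peak also differed by promoter class. Over coding genes with a peak its median was 508.75 tags for CpG-rich and 317.75 tags for CpG-poor promoters. In this set it was 530.5 tags for 21 genes and 167.5 tags for 3. Each of the 8 ligands scored below the coding median of its own promoter class. Whether the ligands stand apart from other CpG-rich genes was not tested.

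**Figure D5:**
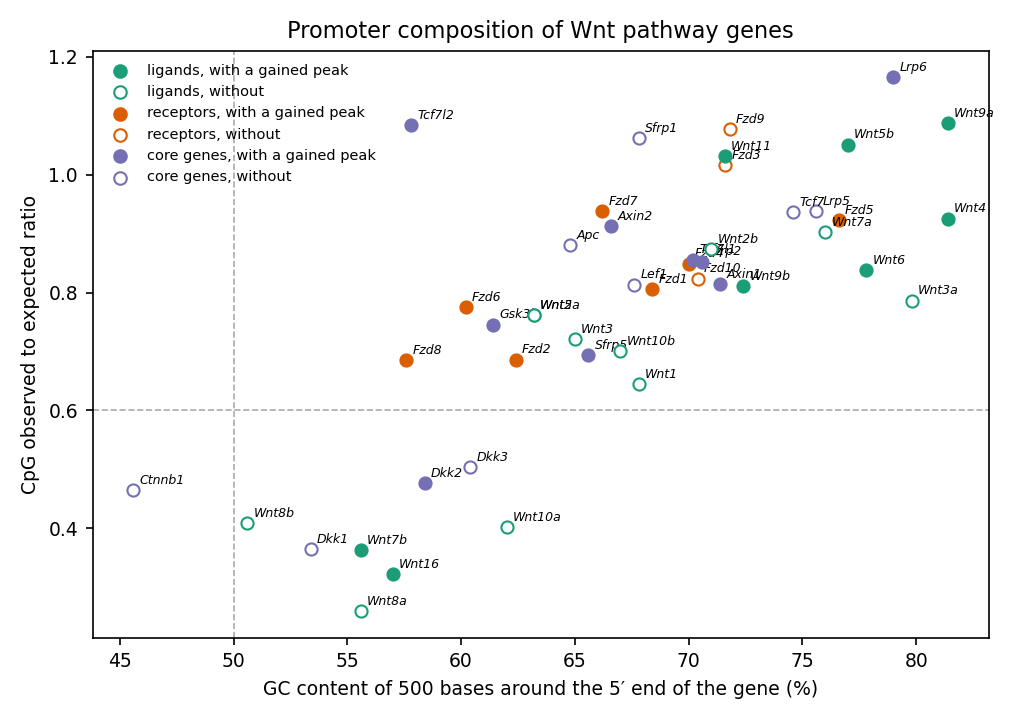
GC content (%) and observed to expected CpG ratio of the 500 bases around the 5′ end of the 46 genes; filled symbols have a gained peak within 3 kb of a TSS, open symbols do not, and dashed lines mark the limits of 50% and 0.6. Of the 37 genes in the upper right, 21 are filled, and open symbols there include *Wnt3a*, *Wnt7a*, *Wnt5a*, *Fzd9* and *Sfrp1*.

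Gained peaks away from promoters were not used to choose or count the genes. A gained peak farther than 3 kb from any TSS was found inside the gene or up to 50 kb from its ends for 32 of the 46 genes (69.6%), against 46.2% of all coding genes. This was so for 15 of 19 ligands (78.9%), 13 of 17 core genes (76.5%) and 4 of 10 receptors (40%). The median window was 124.7 kb for the set and 117.4 kb for coding genes. Summed over the windows there were 0.867 such peaks per 100 kb for the set and 0.545 for coding genes, where neighbouring genes share some peaks. The 5 genes with neither a promoter peak nor a distal one were *Ctnnb1*, *Wnt2b*, *Wnt5a*, *Fzd3* and *Fzd10*.

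Within the transcribed region itself, distal gained peaks were found for 11 of the 46 genes (23.9%), against 14.7% of coding genes. They were in 8 of the 17 core genes, 3 of the 19 ligands and none of the receptors. The ligands were *Wnt2*, *Wnt5b* and *Wnt7a*. *Dkk3*, which had no promoter peak, had 3 intronic peaks of 226.5, 142.5 and 206.5 tags. *Lrp5* had 3 of 102.5, 111.5 and 171 tags and *Tcf7* had 2 of 135 and 112 tags. *Tcf7l2* had 3 of 64.5 to 87.5 tags and *Wnt5b* 3 of 74 to 229 tags. The median window of the core genes was 157.1 kb, against 105.3 kb for the receptors.

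The 54 distal peaks had a median score of 111 tags, with a range from 39.5 to 584.5. Over all 11759 gained peaks farther than 3 kb from any TSS it was 87 tags. That larger set was not limited to 50 kb from a coding gene. The strongest were outside the genes. One of 584.5 tags lay in *Tmem135*, the neighbour of *Fzd4* (chromosome 7, 89367751 to 89367899). Another of 482.5 tags was beyond *Fzd2* (chromosome 11, 102643903 to 102644051), and one of 469 tags was upstream of *Wnt11* (chromosome 7, 98815933 to 98816081). A peak of 319.5 tags (chromosome 1, 74808195 to 74808343) lay 14832 bp from the nearest TSS, that of *Wnt10a*, and within 50 kb of *Wnt6* as well.

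Motif strings were counted on both strands in the 33 promoter peaks and the 54 distal peaks of these genes. The string ATCAAAG, a core of the TCF/LEF site, was in 0 of 33 promoter peaks (exact 95% interval 0 to 10.6%), and in 0.879% of the 12520 gained peaks within 3 kb of any coding gene. Among distal peaks it was in 1 of 54 (1.85%), against 2.12% of all distal peaks. That peak, of 81.5 tags, lay in an intron of *Wnt2* (chr6:18003318-18003466, minus strand, mm10), 27119 bp from its TSS. It is printed because it alone held the string, which is in capitals.
Wnt2: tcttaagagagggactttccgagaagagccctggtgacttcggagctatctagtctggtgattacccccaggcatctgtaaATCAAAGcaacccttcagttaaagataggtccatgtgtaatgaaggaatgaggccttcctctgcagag
The absence of these letters from a window of one peak says nothing about the binding of TCF or LEF factors.

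The GC box GGGCGG was in 18 of 33 promoter peaks (54.5%), against 50.4% of gained peaks within 3 kb of any coding gene, and in 5.56% of distal peaks, against 7.90%. The GATA string AGATAA and the TEAD string GGAATG were in none of the promoter peaks, against 2.76% and 5.99%. In the distal peaks they were in 9 (16.7%) and 11 (20.4%) of 54, against 15% and 15.3%. The CTCF core AGGGGGC, which can share bases with the GC box, was in 5 of 33 (15.2%) and 8 of 54 (14.8%), against 11.6% and 6.85%. The control string GATACAA was in neither group, against 0.343% and 0.825%. Each of these backgrounds lay within the exact 95% interval of the peaks of this set. The background of the CTCF core in distal peaks was nearest to an end, with an interval of 6.62 to 27.1%.

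In the opposite direction, no Wnt pathway gene had a WT-enriched peak within 3 kb of a TSS. The exact 95% interval for 0 of 46 was 0 to 7.71%, and 0.0228% of all coding genes had such a peak. The nearest WT-enriched peak to any TSS of the set was 514386 bp away, from *Lrp5*.

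Other genes of the pathway, from a list of 70 that does not overlap the 46, had a gained peak within 3 kb in 51 cases (72.9%, exact 95% interval 60.9 to 82.8%), above the 51.2% of all coding genes. Of these 70 genes 74.3% had a CpG-rich promoter, and among those 39 of 52 (75%) had a gained peak, near the 77.8% of such coding genes. Among the 18 with a CpG-poor promoter 12 had one (66.7%, 41.0 to 86.7%), against 27.1% of such coding genes. The Dishevelled and cytoplasmic group had 15 of 18, led by *Dact3* with 1341 tags and *Btrc*, a ubiquitin ligase subunit that recognises β-catenin, with 1091.5 tags. *Dvl2*, *Dact2* and *Nkd1* had none. Planar cell polarity genes had 9 of 10, led by *Invs* with 1294 tags and *Daam1* with 1206.5 tags, and *Prickle2* had none. Nuclear partners had 9 of 11, led by the co-repressor genes *Tle4* with 1128.5 tags and *Tle1* with 1017 tags, and *Pygo1* and *Cby1* had none.

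The non-Frizzled receptors *Ror2* (540 tags), *Ror1* (363.5 tags), *Ptk7* and *Ryk* all had a gained peak. In the group of R-spondins and their receptors it was 5 of 9, led by *Lgr4* with 1067 tags and *Znrf3* with 630.5 tags. The genes without one were *Lgr6* and the ligands *Rspo1*, *Rspo3* and *Rspo4*. Further secreted antagonists had 6 of 9, led by *Apcdd1* with 643.5 tags and *Kremen1* with 583.5 tags, while *Dkk4*, *Kremen2* and *Sfrp4* had none. For ligand secretion and handling it was 1 of 3, *Wls* with 285.5 tags, and *Porcn* and *Notum* had none. Of 6 pathway targets, *Ccnd1* (489.5 tags) and *Myc* (440 tags) had a gained peak, and *Cdx1*, *Isl1*, *Sp5* and *Tcf21* did not. The exact intervals of these 5 groups all held the background of 51.2%, as did that of the nuclear partners. Those of the Dishevelled and cytoplasmic group (58.6 to 96.4%) and of the planar cell polarity genes (55.5 to 99.7%) lay above it. They held the 77.8% of coding genes with a CpG-rich promoter, but that value covers such promoters alone. These groups were not divided by promoter composition, so its part in their shares was not tested.

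At *Smyd1* there was no gained peak in the 3 kb around any TSS, 2 lay farther inside the gene, and no WT-enriched peak lay within 10 kb, so the lists do not check the labels at the targeted gene. Gained peaks within 3 kb were found for 4 of 5 cardiomyocyte markers, 2 of 5 endocardial and endothelial markers, 1 of 5 erythroid markers and 4 of 5 epicardial and mesenchymal markers. The background of 51.2% of all coding genes lay within the exact interval of each of these 4 lists. These lists hold only differing peaks, so they do not show which cell types were present, and the part of cell composition in the results above was not tested.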

How the data were processed

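ATAC-seq was performed by the authors on 2 WT and 2 *Smyd1-KO* libraries of pooled E9.5 hearts. Per the study's methods, reads were aligned to mm10 with BWA-MEM, and peaks were called with HOMER v4.10.3 and annotated with ChIPseeker v1.20.0. Headers of the study's peak lists show that the libraries of a genotype were combined and that peaks with a 2-fold difference in tags were kept. How tags were scaled between genotypes is not given in the sources used here. The deposited signal is the pooled tags per peak, and no values per library were used here. The treatment of duplicates, multi-mapping reads and the Tn5 offset is not stated in the sources used here, and each could change which peaks are listed.

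Distances were computed from the peak edge to the TSSs of all GENCODE M21 transcripts, on the GRCm38 sequence, with Python 3.11.15, pandas 2.3.3 and pysam 0.24.0. The 13 mitochondrial coding genes were left out. Intervals are exact Clopper-Pearson intervals (scipy 1.17.1) and cover counting error only. The window assignment was tested on simulated peaks. No statistical test was made, since libraries were pooled and genes are not replicates. Genes named in full were the 5 of each class with the highest-scoring peak, the receptors and core genes without one, and neighbouring ligands, and of the other pathway genes the 2 highest-scoring of each group and those without a peak. The genes and lists were chosen with earlier results of these data known. Alternatives were other windows, TSS sets, peak-to-gene rules, a score minimum and CpG definitions.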

Additional observations from a re-analysis of the deposited data

How the results depend on the processing

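The count of Wnt pathway genes with a gained peak within 3 kb was 24 in the analysis as reported and 19 to 30 under the 7 alternatives. The share of coding genes was 51.2% as reported, 45.4% where the count was 19 and 59.6% where it was 30. It was also 24 genes with the 5′ end of the gene as the only TSS, with TSSs of protein-coding transcripts alone and with distances from the middle of the peak. For these settings the share of coding genes was 47.0%, 49.6% and 51.1%. With only peaks scoring at or above the median of the list, 5 of 19 ligands (26.3%) had a gained peak in place of 8, against 45.4% of coding genes. When a peak counted for the nearest coding gene alone, *Fzd4* left the count and 6 of 10 receptors (60.0%) had one, against 46.9% of coding genes. The median score of the strongest peak of the ligands was 197.75 tags with a window of 10 kb. With the promoter taken as 300 bases, 5 of 15 genes with a CpG-poor promoter had a gained peak in place of 3 of 9, a share of 33.3% in both cases. The share of coding genes with a CpG-poor promoter was 32.0% in place of 27.1%. When any TSS of a gene could make it CpG-rich, 1716 of 9541 coding genes with a CpG-poor promoter (18%) had a gained peak in place of 3122 of 11508 (27.1%). No paired analysis was possible because the lists pool the libraries of a genotype, and leaving out a library could not be run for the same reason. Depth per library is unknown, so a missing peak cannot be told from one too weak to be called.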
